A study of Mus musculus with 11 samples.

Results

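Chemokines are small secreted or membrane-tethered proteins that bind receptors on leukocytes and direct where those cells move. In a mucosa, epithelial cells, macrophages and stromal cells release them: the CXCR2 ligands draw neutrophils, the CXCR3 ligands draw T cells, and CCL20 and CCL28 guide lymphocytes and antibody-secreting cells. Genes of the neutrophil-attracting group are classical targets of NF-κB, and Cxcl9 and Cxcl10 are classical targets of interferon. The 10 mucosal chemokine genes Cxcl1, Cxcl2, Cxcl5, Cxcl9, Cxcl10, Cxcl16, Cx3cl1, Cxcl17, Ccl20 and Ccl28 were taken by name from the 34866 genes of the deposited table, and all 10 were found.

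RNA was measured by bulk sequencing of gastric mucosa from the corpus, the acid- and enzyme-producing region of the mouse stomach, in 11 samples. The control group was wild type (n = 2). The ATP4B-DTR line (n = 3) carries the diphtheria toxin receptor (DTR) under the name of a proton pump subunit of acid-secreting parietal cells. The GIF-DTR line (n = 3) carries it under the name of intrinsic factor, which chief cells make in mice, and GIF/ATP4B-DTR mice (n = 3) carry both. The series describes the lines as models for selective removal of parietal and chief cells. The toxin dose, its timing, the age and the sex of the mice are not given in the sources used here, nor is it stated whether samples of a group came from separate mice. The p-values therefore measure the spread between these samples, which may be technical.

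Levels are counts per mega-count (CPM) scaled by TMM, a normalization that sets library sizes from the bulk of genes. Totals were 20.7 to 27.9 M counts (M, mega) per sample, and 3 counts, taken here as the counting floor, corresponded to 0.107 to 0.166 CPM. That floor covers counting error only. Atp4b stood at 4786 and 4365 CPM in control 1 and 2, then 475 to 683 CPM in the ATP4B-DTR samples and 158 to 468 CPM in the GIF/ATP4B-DTR samples, against 2136 to 3470.4 CPM in the GIF-DTR samples. Gif stood at 702 and 2303 CPM in control 1 and 2, then 332 to 824 CPM in the ATP4B-DTR samples, 65.5 to 196 CPM in the GIF-DTR samples and 72.3 to 218 CPM in the GIF/ATP4B-DTR samples. The Y-linked genes Ddx3y and Eif2s3y summed to 78.1 CPM or more in both controls, ATP4B-DTR 1 and all GIF/ATP4B-DTR samples, and to 0.157 CPM or less in ATP4B-DTR 2 and 3 and all GIF-DTR samples. The controls also differed in cell type markers: the 6 fibroblast markers summed to 49.3 and 500.1 CPM in control 1 and 2, the 6 endothelial markers to 19.3 and 106 CPM and the 6 B and plasma cell markers to 20.6 and 332 CPM. In the comparisons of GIF-DTR with control and with GIF/ATP4B-DTR, the line and this contrast in Ddx3y and Eif2s3y cannot be told apart from the samples compared. Only ATP4B-DTR held samples of both kinds, so the covariate for Y-linked expression used below rests on ATP4B-DTR 1 against ATP4B-DTR 2 and 3. In bulk tissue, fewer cells of a type and less RNA per cell cannot be told apart either.

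Several of these genes lie side by side. Cxcl5 (chr5:90759360-90761624), Cxcl1 (chr5:90891241-90893115) and Cxcl2 (chr5:90903871-90905938) are on the plus strand of 1 cluster of 146.6 kb, and Cxcl9 (chr5:92321347-92328079) and Cxcl10 (chr5:92346638-92348889) are minus-strand neighbours within 27.5 kb. These gene positions are those of GENCODE M21 on GRCm38. The other members are single loci: Cxcl16 (chr11:70453983-70459984), Cx3cl1 (chr8:94772009-94782427), Cxcl17 (chr7:25400053-25412886), Ccl20 (chr1:83116766-83119167) and Ccl28 (chr13:119623819-119654359).

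The RefSeq promoter table for GRCm38.p6, which covers 250 bases before to 50 bases after each gene start, held 7 of the 10 members. It was searched on both strands for the NF-κB consensus, for the interferon-stimulated response element core GAAANNGAAA and for the gamma-activated sequence core TTCNNNGAA. An NF-κB consensus match lay in the promoters of Cxcl1, Cxcl2, Cxcl10 and Ccl20, and none lay in those of Cxcl9, Cx3cl1 and Ccl28. Among all 32851 promoters of the table, 8.46% held such a match. The GAAANNGAAA core was found in Cxcl10 and in none of the other 6, against 3.44% of all promoters, and TTCNNNGAA was found in none of the 7, against 8.3% of all promoters. The 4 promoters that hold NF-κB matches are shown because all 4 genes were called higher in at least 1 line. Capitals mark the NF-κB matches and, in Cxcl10, also the GAAANNGAAA core nearest the 5′ end. Each is an excerpt of 191 to 219 bases of the window, which begins at -220 and ends before the first annotated start, written 5′ to 3′ on the strand of the gene, from chr5:90891025-90891239 (plus), chr5:90903679-90903869 (plus), chr5:92348891-92349109 (minus) and chr1:83116546-83116764 (plus).

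Cxcl1: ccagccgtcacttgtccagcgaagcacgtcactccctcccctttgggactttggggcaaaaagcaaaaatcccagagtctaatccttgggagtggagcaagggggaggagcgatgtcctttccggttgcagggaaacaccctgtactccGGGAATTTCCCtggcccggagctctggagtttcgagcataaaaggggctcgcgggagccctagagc
Cxcl2: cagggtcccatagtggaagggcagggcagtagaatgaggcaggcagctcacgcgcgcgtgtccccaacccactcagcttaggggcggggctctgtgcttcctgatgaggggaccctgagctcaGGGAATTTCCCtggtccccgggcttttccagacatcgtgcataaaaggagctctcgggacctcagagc
Cxcl10: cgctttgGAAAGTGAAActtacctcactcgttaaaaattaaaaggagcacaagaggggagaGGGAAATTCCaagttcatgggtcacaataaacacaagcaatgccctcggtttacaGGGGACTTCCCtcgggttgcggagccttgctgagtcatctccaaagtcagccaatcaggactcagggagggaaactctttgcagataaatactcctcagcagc
Ccl20: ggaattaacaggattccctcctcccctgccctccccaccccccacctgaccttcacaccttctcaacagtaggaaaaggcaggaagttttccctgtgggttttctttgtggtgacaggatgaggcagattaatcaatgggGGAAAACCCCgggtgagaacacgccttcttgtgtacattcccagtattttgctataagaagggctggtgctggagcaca

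The matches of Cxcl1 and Cxcl2 hold the same 11 letters, which are 2 overlapping matches of the 10-base consensus. They start at -71 in Cxcl1 and -97 in Cxcl2, counted from the RefSeq start, which for these 2 genes lies downstream of the GENCODE start given above and for Cxcl10 and Ccl20 is the same base. Cxcl10 has matches starting at -159, -104 and -103, with the GAAANNGAAA core from -213 to -204, and Ccl20 has a match from -80 to -71. A match describes these letters and is not a shown site of binding.

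Compared per kilobase of exon, the 10 chemokines spanned several orders of magnitude, and their order differed between control and the lines for Cxcl10. Cxcl17, a mucosal chemokine for which the receptor is debated, was first in every group, with means of 94.7, 88.0, 91.3 and 99.7 CPM per kb in control, ATP4B-DTR, GIF-DTR and the combined GIF/ATP4B-DTR. Cxcl16 was the next, at 10.7 CPM per kb in control, where its samples overlapped those of Cx3cl1 at 10.3 CPM per kb. Ccl28 was the fourth in control at 2.52 CPM per kb.

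Cxcl10 was the fifth in control at 0.368 CPM per kb, below every sample of Ccl28. It was the fourth in ATP4B-DTR at 5.45 CPM per kb and the third in GIF-DTR and the combined GIF/ATP4B-DTR at 9.66 and 13.6 CPM per kb, overlapping Cx3cl1 in each of the 3 lines. The other 5 genes, Cxcl1, Cxcl2, Cxcl5, Cxcl9 and Ccl20, had control means of 0.116 CPM per kb or less, and neighbours in their control order overlapped. In the lines, the lowest was Cxcl5 in GIF-DTR at 0.0155 CPM per kb and Cxcl9 in ATP4B-DTR and the combined GIF/ATP4B-DTR at 0.0563 and 0.112 CPM per kb.

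**Figure D1:**
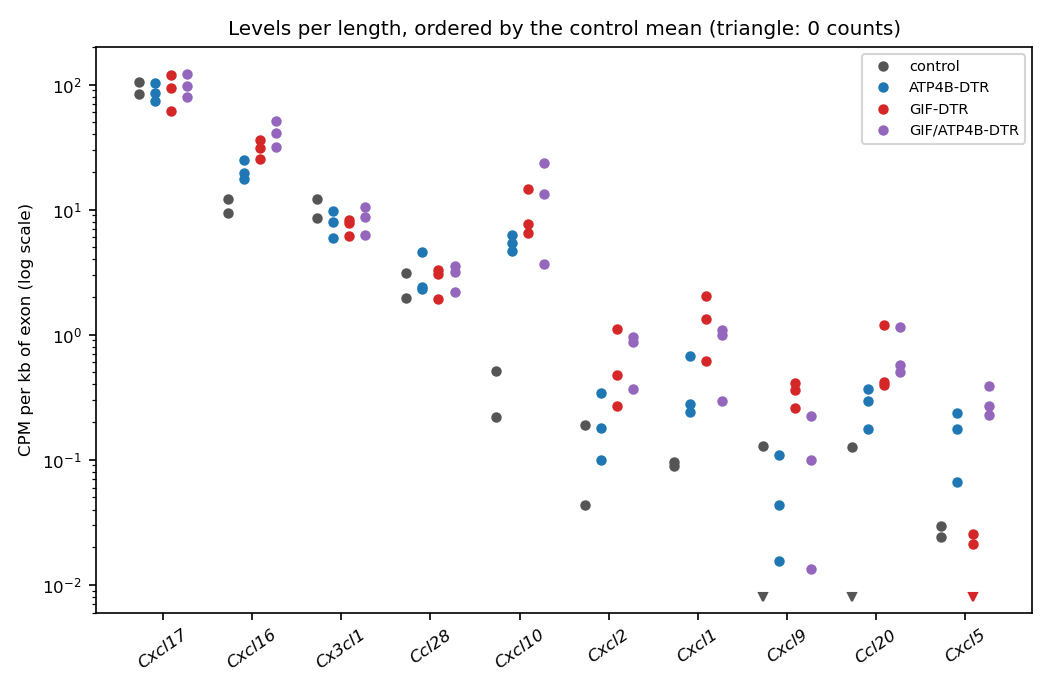
CPM per kb of exon (log axis) of each chemokine, with 1 point per sample coloured by genotype, ordered by the control mean; triangles at the bottom mark samples with 0 counts. Cxcl17 lies highest in every group, and Cxcl10 moves from a control mean of 0.368 to line means of 5.45, 9.66 and 13.6 CPM per kb.

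In edgeR's quasi-likelihood test with Benjamini-Hochberg adjustment over the 14889 genes tested, 2 of the 10 chemokines were called higher than control in ATP4B-DTR, with 4 in GIF-DTR, 6 in GIF/ATP4B-DTR, and 0 were called lower. A call here is an adjusted p under 0.05. At the same threshold, 12.2% of all genes tested were called higher in ATP4B-DTR, against 9.97% in GIF-DTR and 18.2% in the combined GIF/ATP4B-DTR. The median log2 fold change of the members was 0.90, 1.99 and 2.32 in the same order, beside -0.01, -0.01 and -0.04 over all genes tested. All 10 passed the filter on low counts, Cxcl5 with 3 counts or fewer in 6 of 11 samples. Cxcl5 passed through the GIF/ATP4B-DTR samples, where it is high, so its calls are drawn from a gene those samples selected. The 3 comparisons share the same 2 control samples, so the members' values in them are given side by side and are not independent.

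Samples of the line and of control did not overlap for 5 members in ATP4B-DTR, 7 in GIF-DTR, with 6 in the combined GIF/ATP4B-DTR. Among all genes tested the same held for 48.5%, 48% and 56.3%. Cxcl10 and Cxcl16 were called higher in all 3 lines, as were 1215 genes, or 8.16% of those tested. Cxcl1 and Ccl20 were called higher in GIF-DTR and GIF/ATP4B-DTR, and Cxcl2 and Cxcl5 in GIF/ATP4B-DTR. DESeq2, run as the alternative tool, called 2, 5 and 6 members higher in the same order of lines, where it called 14.3%, 12.4% and 20.1% of all genes higher.

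**Figure D2:**
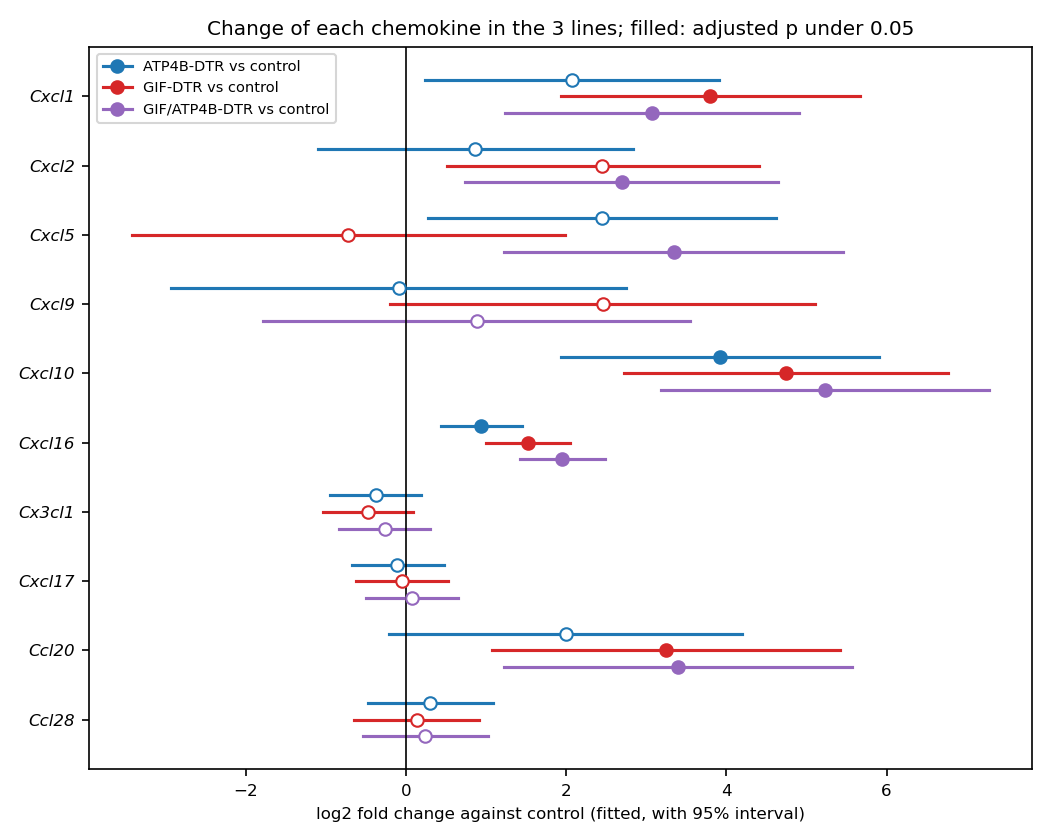
Fitted log2 fold change of each chemokine against control (x axis), with its 95% interval, for the 3 lines; filled points have an adjusted p under 0.05. Cxcl10 and Cxcl16 are filled in all 3 lines, while Cx3cl1, Cxcl17 and Ccl28 lie near 0 and are open in all 3.

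**Figure D3:**
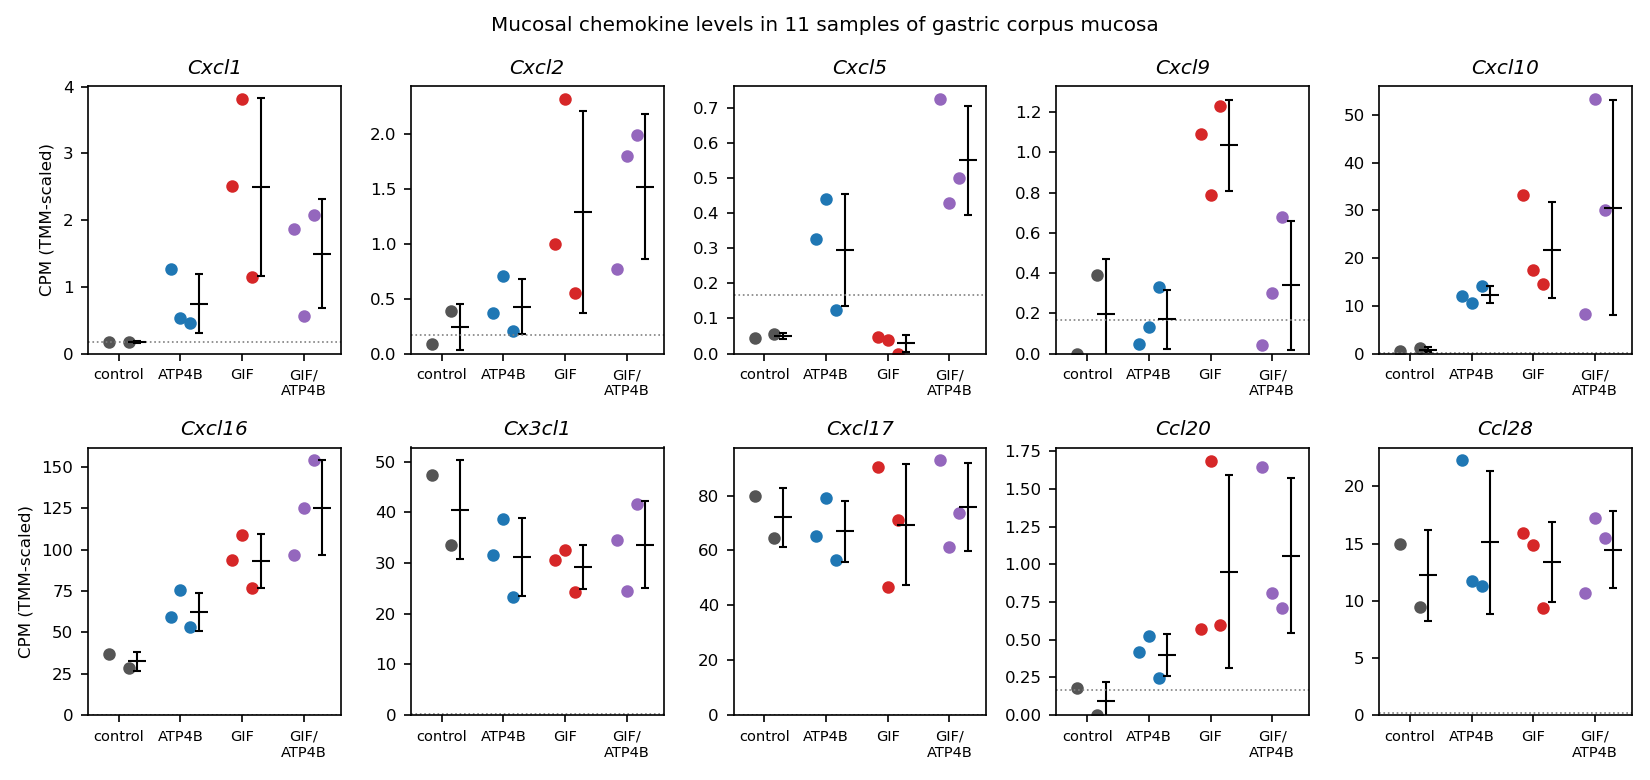
CPM of each chemokine in every sample, with 1 point per sample and the mean and SD of the group in black beside it; axes are linear from 0 and differ between genes, and the dotted line is the highest 3-count floor of any sample, 0.166 CPM. Cxcl5 is at or under 3 counts in control and GIF-DTR, and Cxcl9 lies highest in the 3 GIF-DTR samples.

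The CXCR2 ligands among the members, the neutrophil-attracting chemokines, were near the counting floor in the controls. They were called higher in GIF/ATP4B-DTR for 3 of 3 genes, in GIF-DTR for 1 of 3 and in ATP4B-DTR for 0 of 3. Among all genes tested 18.2%, 9.97% and 12.2% were called higher in these lines. Cxcl3, a CXCR2 ligand outside the members, was not called in any line. It measured 0.0449 and 0.222 CPM in control 1 and 2 and 0.484, 0.470 and 0.107 CPM in the GIF/ATP4B-DTR samples. Cxcl1, the mouse counterpart of the growth-regulated oncogene chemokines, measured 0.180 and 0.166 CPM in the 2 controls, which is 4 and 3 counts. It measured 1.26, 0.527 and 0.456 CPM in the ATP4B-DTR samples, 2.51, 3.82 and 1.15 CPM in the GIF-DTR samples, and 1.86, 0.556 and 2.07 CPM in the GIF/ATP4B-DTR samples. Every sample of the 3 lines lay above both controls, and the 3 lines overlapped each other.

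The log2 fold change of Cxcl1 was 3.80 ± 0.85 (SE) in GIF-DTR (14.0-fold, edgeR adjusted p = 0.0134) and 3.07 ± 0.84 in GIF/ATP4B-DTR (8.41-fold, edgeR adjusted p = 0.0156). In ATP4B-DTR it was 2.07 ± 0.84 with an edgeR adjusted p = 0.103, and its 95% interval ran from 0.23 to 3.91. Both Cxcl1 calls were lost when either control was left out, which leaves 1 control. Over the fits that left out 1 sample, the log2 fold change ran from 3.35 to 4.14 in GIF-DTR and from 2.76 to 3.46 in GIF/ATP4B-DTR.

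Cxcl2, also called macrophage inflammatory protein 2, measured 0.0898 and 0.388 CPM in control 1 and 2, then 0.372, 0.702 and 0.207 CPM in the ATP4B-DTR samples. It measured 0.993, 2.32 and 0.555 CPM in the GIF-DTR samples and 0.766, 1.80 and 1.99 CPM in the GIF/ATP4B-DTR samples. The ATP4B-DTR samples overlapped the controls, and the other 2 lines lay above both controls. Its log2 fold change was 2.69 ± 0.89 in GIF/ATP4B-DTR (6.43-fold, edgeR adjusted p = 0.0369). It was 2.45 ± 0.89 in GIF-DTR with an edgeR adjusted p = 0.0813, where DESeq2 gave an adjusted p = 0.0398, and 0.86 ± 0.90 in ATP4B-DTR with an edgeR adjusted p = 0.526. The call in GIF/ATP4B-DTR was lost without control 1, control 2, ATP4B-DTR 1, GIF/ATP4B-DTR 2 or GIF/ATP4B-DTR 3, at edgeR adjusted p from 0.0515 to 0.182. Without control 1 its log2 fold changes were 0.14, 1.73 and 1.96 in ATP4B-DTR, GIF-DTR and the combined GIF/ATP4B-DTR, and without control 2 they were 2.18, 3.77 and 4.0. Without GIF-DTR 2 the value in GIF-DTR was 1.71, and without ATP4B-DTR 2 that in ATP4B-DTR was 0.31. The call was also lost among the samples with Y-linked expression alone (edgeR adjusted p = 0.0537).

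Cxcl5, a CXCR2 ligand that epithelial cells can make, had another order of lines. It had 1 count in each control and 1, 1 and 0 counts in GIF-DTR, so both groups were at the counting floor. It measured 0.326, 0.439 and 0.124 CPM in the ATP4B-DTR samples, or 7, 10 and 3 counts, and 0.726, 0.428 and 0.499 CPM in the GIF/ATP4B-DTR samples, or 18, 10 and 14 counts. All GIF/ATP4B-DTR samples lay above every control and every GIF-DTR sample. The 5 squamous forestomach markers summed to 0.943 and 0.277 CPM in control 1 and 2, then 13.7, 20.4 and 2.15 CPM in ATP4B-DTR 1 to 3, the order in which Cxcl5 ranked within that line. They summed to 0.952 to 1.37 CPM in the GIF-DTR samples and 1.37, 4.10 and 2.24 CPM in the GIF/ATP4B-DTR samples, where Cxcl5 was highest in the sample with the lowest sum. Krt13, the only one of the 5 that could be tested, was called higher in ATP4B-DTR (edgeR adjusted p = 0.0142) and not in the other 2 lines. The 2 antrum markers Gast and Pdx1 summed to 0.359 and 0.0554 CPM in control 1 and 2 and to 0.922 to 9.20 CPM in the line samples, and Pdx1 was called higher in GIF-DTR and GIF/ATP4B-DTR (edgeR adjusted p = 0.0434 and 0.0274). The part of these markers in the chemokine levels was not tested.

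Cxcl5 passed the low-count filter through the GIF/ATP4B-DTR samples, where it is high, and without GIF/ATP4B-DTR 1 or 3 it did not pass and was not tested. With no filter both calls given next were made too (edgeR adjusted p = 0.0417 and 0.0435). Cxcl5 was called higher in GIF/ATP4B-DTR than in control (fitted log2 fold change 3.34, edgeR adjusted p = 0.0203). It was also called higher there than in GIF-DTR (4.06, edgeR adjusted p = 0.0312). Both calls come from a gene that the GIF/ATP4B-DTR samples brought through the filter. Against the mean 3-count floor, GIF/ATP4B-DTR was at least 3.66-fold above control and at least 4.36-fold above GIF-DTR. In this model no other member was called between 2 lines, and 0.336% of all genes tested were called higher in that comparison. Its comparison of ATP4B-DTR with control gave an edgeR adjusted p = 0.102. The first call was lost without control 1 (edgeR adjusted p = 0.100) or control 2 (0.0999). The second was lost without any 1 of the GIF-DTR samples (edgeR adjusted p from 0.0838 to 0.116) and with a covariate for Y-linked expression (edgeR adjusted p = 0.587), and DESeq2 gave it no adjusted p. The fitted log2 fold change of that comparison stayed between 3.49 and 4.47 over the 9 fits that left out 1 sample and kept the gene, and was 3.84 with the covariate.

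Of the receptor and the marker genes of neutrophils, on which CXCR2 ligands act, most were near the counting floor and Retnlg was not. Cxcr2 had at most 0.378 CPM in any sample, and Ly6g, a defining neutrophil marker, had 0 counts in 10 of 11 samples and 1 count in GIF/ATP4B-DTR 2. The 8 neutrophil markers summed to 0.584 to 2.11 CPM in control, 0.978 to 2.46 CPM in the ATP4B-DTR samples, 0.615 to 6.43 CPM in the GIF-DTR samples and 0.121 to 0.898 CPM in the GIF/ATP4B-DTR samples. Ly6g, Mpo and Elane were at 3 counts or fewer in all 11 samples. Retnlg, a resistin-like gene of neutrophils, measured 2.24 and 5.36 CPM in GIF-DTR 2 and 3, or 57 and 135 counts, beside 0.331 CPM in GIF-DTR 1, with control 1 and 2 at 0.0898 and 0.776 CPM. Csf3r, the receptor gene for granulocyte colony-stimulating factor, had 18 and 20 counts in GIF-DTR 2 and 3 and 9 or fewer in every other sample. Of the 8 markers only Retnlg and Csf3r could be tested, and 0 of these 2 were called in any line against control. The GIF/ATP4B-DTR line, where 3 CXCR2 ligands were called, had the lowest mean neutrophil sum of the 4 groups. Its samples overlapped control 1 (0.584 CPM) and GIF-DTR 1 (0.615 CPM).

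Of the CXCR3 ligands, Cxcl10 was called higher in all 3 lines and Cxcl9 in none. Cxcl10 measured 0.494 and 1.16 CPM in the 2 controls, or 11 and 21 counts. It measured 12.1, 10.6 and 14.2 CPM in the ATP4B-DTR samples, 33.2, 17.4 and 14.6 CPM in the GIF-DTR samples, and 8.31, 53.4 and 30.0 CPM in the GIF/ATP4B-DTR samples. All 9 samples of the lines lay above both controls, and within GIF/ATP4B-DTR the highest sample was 6.43 times the lowest, against 1.34 times in ATP4B-DTR.

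The log2 fold change of Cxcl10 was 3.92 ± 0.88 in ATP4B-DTR (15.1-fold, edgeR adjusted p = 0.0143), 4.74 ± 0.89 in GIF-DTR (26.7-fold, edgeR adjusted p = 0.00998) and 5.23 ± 0.90 in the combined GIF/ATP4B-DTR (37.5-fold, edgeR adjusted p = 0.00253). None of the differences between lines passed the threshold. GIF/ATP4B-DTR against ATP4B-DTR gave 1.31 (95% interval -0.02 to 2.65, edgeR adjusted p = 0.489). GIF-DTR against ATP4B-DTR gave 0.82 (95% interval -0.51 to 2.15) and GIF/ATP4B-DTR against GIF-DTR gave 0.49 (95% interval -0.82 to 1.80). Over the fits that left out 1 sample these ran from 0.64 to 1.76, 0.38 to 1.04 and -0.18 to 0.94. The call in GIF/ATP4B-DTR held under all 20 alternatives run for it, with edgeR or DESeq2 adjusted p up to 0.0430, and its log2 fold change ran from 4.56 without GIF/ATP4B-DTR 2 to 5.93 without control 2. The calls in ATP4B-DTR and GIF-DTR were lost without control 1 (edgeR adjusted p = 0.0849 and 0.0675), without control 2 (0.0624 and 0.0511) and with the Y-linked covariate (0.0524 and 0.101). With that covariate, which rests on ATP4B-DTR 1 against ATP4B-DTR 2 and 3, the log2 fold changes were 3.90 and 4.71. They were 3.40 and 4.22 without control 1 and 4.62 and 5.44 without control 2.

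The change of Cxcl10 from ATP4B-DTR to GIF/ATP4B-DTR was smaller than that from control to GIF-DTR by 3.43 on the log2 scale. This is an interaction of -3.43 ± 1.03 (SE) with an edgeR adjusted p = 0.168. It ran from -4.13 to -2.90 over the fits that left out 1 sample. For this interaction 0.651% of all genes tested were called and 0 of 10 members were, with 2 members, Cxcl1 and Cxcl10, at an unadjusted p under 0.05, as were 15.6% of all genes. DESeq2 called the Cxcl10 interaction (adjusted p = 0.00269), with 4.9% of all genes called.

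Cxcl9, the CXCR3 ligand most closely tied to interferon gamma, measured 0 and 0.388 CPM in control 1 and 2, then 0.0466, 0.132 and 0.331 CPM in the ATP4B-DTR samples, and 0.0403, 0.299 and 0.677 CPM in the GIF/ATP4B-DTR samples. In GIF-DTR it measured 1.09, 0.787 and 1.23 CPM, or 20 to 31 counts. The 3 GIF-DTR samples lay above all 8 others. The log2 fold change of GIF-DTR against control was 2.46 ± 1.21 (95% interval -0.20 to 5.11, edgeR adjusted p = 0.191). It was 1.41 without control 1, which has 0 counts, and 7.63 without control 2. The log2 fold change of GIF-DTR against ATP4B-DTR was 2.55 ± 1.02 (95% interval 0.31 to 4.79, edgeR adjusted p = 0.423).

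By the profile of centred log2 CPM over the 11 samples, the genes nearest to Cxcl9 were Mpeg1, C1qb and C1qa, genes that macrophages express, with root mean square differences of 0.67 to 0.70 against a spread of 1.30 for Cxcl9 itself. The search covered genes with a mean of at least 8 CPM. The 11 macrophage and monocyte markers summed to 97.2 to 108 CPM in the GIF-DTR samples, above control 1 and 2 (15.5 and 73.4 CPM), ATP4B-DTR (42.0 to 65.2 CPM) and GIF/ATP4B-DTR (36.2 to 58.7 CPM), and none of the 11 is at 0 across a group. The markers did not all follow that order: C1qa, C1qb and C1qc were highest in the GIF-DTR samples (C1qa 19.0 to 21.3 CPM, against 14.0 CPM or less elsewhere), while Mrc1 was highest in control 2 (7.82 CPM), Cd68 in GIF/ATP4B-DTR 3 (8.76 CPM) and Cd14 in ATP4B-DTR 1 (13.3 CPM). Of the 11 markers, Cd14 and Ccr2 were called higher in GIF-DTR and Cd14 was called higher in the other 2 lines. Without control 1, neither was called in GIF-DTR (edgeR adjusted p = 0.146 and 0.102), nor was Cd14 in ATP4B-DTR (0.0714). In GIF-DTR, Cd14 was also lost without control 2 (edgeR adjusted p = 0.0556) and Ccr2 with the Y-linked covariate (0.385). The part of these markers in the Cxcl9 and other chemokine levels was not tested.

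Cxcr3 itself had 2 counts or fewer in every sample. Cxcl11, the third CXCR3 ligand, was taken from a list of 27 other chemokines. It had 1 and 0 counts in the controls, 13, 5 and 23 in ATP4B-DTR, 11, 83 and 135 in GIF-DTR, and 9, 53 and 29 in the combined GIF/ATP4B-DTR. It was called higher in GIF-DTR (log2 fold change 6.68, edgeR adjusted p = 0.0154) and GIF/ATP4B-DTR (5.35, edgeR adjusted p = 0.0205). In ATP4B-DTR it had an edgeR adjusted p = 0.0748. Against the mean 3-count floor of control, GIF-DTR was at least 20.2-fold and GIF/ATP4B-DTR at least 8.11-fold higher. Both calls were lost without either control (edgeR adjusted p from 0.0710 to 0.128), and that in GIF-DTR with the Y-linked covariate (0.122), where the fitted log2 fold change was 6.72 in place of 6.68.

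Of 20 interferon pathway genes, 19 could be tested. Irf1, a transcription factor induced by interferon gamma, was called higher in GIF-DTR (2.32-fold, edgeR adjusted p = 0.0364) and GIF/ATP4B-DTR (2.20-fold, edgeR adjusted p = 0.0259). Its log2 fold changes in these 2 lines were 1.21 and 1.14. They were 1.82 and 1.75 without control 1 and 0.79 and 0.71 without control 2. In ATP4B-DTR 0 of the 19 were called higher and 2 lower, Jak1 and Ifngr1, and in GIF/ATP4B-DTR Jak1 was called lower. Among all genes tested, 9.39%, 6.82% and 15.4% were called lower in ATP4B-DTR, GIF-DTR and the combined GIF/ATP4B-DTR, beside the 12.2%, 9.97% and 18.2% called higher. Without control 1 none of these lower calls held (edgeR adjusted p = 0.111, 0.251 and 0.0572), and the count of 2 in ATP4B-DTR ran from 0 to 2 and changed in 7 of 11 fits that left out 1 sample. The counts moved with the control left out: without control 1, those called higher were 4 in ATP4B-DTR, 6 in GIF-DTR, with 7 in the combined GIF/ATP4B-DTR, and without control 2 they were 0 in the latter 2 lines. The count of 1, that of Irf1, also fell to 0 without a filter on low counts in both lines, in GIF-DTR with the Y-linked covariate and without ATP4B-DTR 2, ATP4B-DTR 3, GIF-DTR 2 or GIF/ATP4B-DTR 3, and in GIF/ATP4B-DTR without GIF/ATP4B-DTR 2 or 3. The median log2 fold change of the 19 was 0.48, 0.94 and 0.49 in ATP4B-DTR, GIF-DTR and the combined GIF/ATP4B-DTR.

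Of the interferon pathway genes, Isg15, Ifit1 and Irf7 split the controls in a way that Cxcl10 did not. Ifit3 did too (23.4 and 4.10 CPM in control 1 and 2), while Irf8 (5.21 and 5.05 CPM) and Cd274 (4.13 and 2.61 CPM) differed less. The part of any pathway in the Cxcl10 levels was not tested. Isg15, an interferon-induced ubiquitin-like protein, measured 54.3 CPM in control 1 and 3.94 CPM in control 2, while Cxcl10 measured 0.494 and 1.16 CPM. Ifit1, an interferon-induced RNA-binding protein, measured 49.4 and 5.49 CPM, and Irf7, a transcription factor of the type I interferon response, 98.7 and 19.4 CPM. The line samples of Isg15 ran from 35.8 to 127 CPM, so control 1 lay inside their range and control 2 below it. None of the 3 was called in any line, with edgeR adjusted p from 0.167 to 0.464. Without control 1, Isg15 was called higher in all 3 lines (log2 fold changes of 3.94, 4.4 and 4.13 in place of 1.04, 1.51 and 1.23, edgeR adjusted p = 0.0308, 0.0341 and 0.0152). Irf7 was then called in all 3 lines too (0.0239, 0.0201 and 0.0164) and Ifit1 in GIF/ATP4B-DTR (0.0352), and without control 2 none of the 3 was. Ifng, the gene of interferon gamma, had at most 1 count in any sample.

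**Figure D4:**
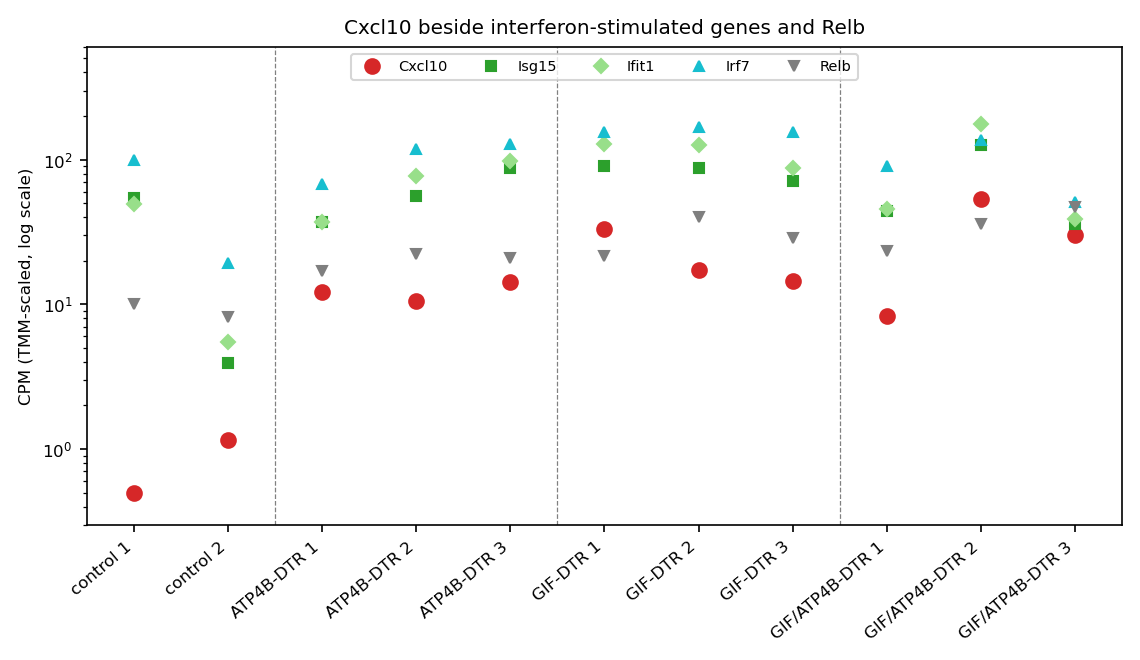
CPM (log axis) of Cxcl10, the interferon-stimulated genes Isg15, Ifit1 and Irf7, and the NF-κB subunit gene Relb in each of the 11 samples, with dashed lines between genotypes. Cxcl10 is low in both controls (0.494 and 1.16 CPM), as is Relb (mean 9.11 CPM), whereas Isg15 is 54.3 CPM in control 1 and 3.94 CPM in control 2.

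The 2 membrane-bound chemokines, which are made with a mucin-like stalk and can be shed, did not move together. Cxcl16, which binds CXCR6 and also acts as a scavenger receptor for oxidized lipoprotein, was called higher in all 3 lines. It measured 36.6 and 28.4 CPM in control 1 and 2, then 59.0, 75.4 and 53.2 CPM in the ATP4B-DTR samples, 93.8, 109 and 76.5 CPM in the GIF-DTR samples, and 96.8, 125 and 154 CPM in the GIF/ATP4B-DTR samples. All line samples lay above both controls, and every GIF-DTR and GIF/ATP4B-DTR sample lay above every ATP4B-DTR sample.

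The log2 fold change of Cxcl16 was 0.94 ± 0.23 in ATP4B-DTR (1.92-fold, edgeR adjusted p = 0.0150), 1.52 ± 0.24 in GIF-DTR (2.87-fold, edgeR adjusted p = 0.00289) and 1.95 ± 0.24 in the combined GIF/ATP4B-DTR (3.86-fold, edgeR adjusted p = 0.000218). Between GIF/ATP4B-DTR and ATP4B-DTR it was 1.00 ± 0.20 (2.01-fold), with an edgeR adjusted p = 0.107. In that comparison edgeR called 0 genes (0% of those tested), 2 members, Cxcl2 and Cxcl16, had an unadjusted p under 0.05, as did 10.4% of all genes, and DESeq2 called 1 member, Cxcl16 (adjusted p = 0.000966), and 1.87% of all genes. With no filter on low counts edgeR called Cxcl16 there as well (log2 fold change 0.99, adjusted p = 0.0480). The call in GIF/ATP4B-DTR held under all 20 alternatives run for it. That in ATP4B-DTR was lost without control 2 (edgeR adjusted p = 0.126) and with the Y-linked covariate (0.0973), and that in GIF-DTR with the Y-linked covariate (0.0847). With the covariate the log2 fold changes of Cxcl16 were 0.86 and 1.40.

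The counts of Cxcl16 were fractional in 10 of 11 samples, for example 813.996 and 511.978 in control 1 and 2. Those of Cxcl10 were whole in all 11. The reason for the fractions is not given. The genes nearest to Cxcl16 in profile were Neurl3, Relb and Ifrd1, at 0.22 to 0.24 log2 units against a spread of 0.71 for Cxcl16. Its receptor gene Cxcr6 measured 0.610 CPM or less in every sample.

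Cx3cl1, or fractalkine, measured 47.4 and 33.6 CPM in control 1 and 2, then 31.6, 38.6 and 23.2 CPM in the ATP4B-DTR samples, 30.6, 32.6 and 24.3 CPM in the GIF-DTR samples, and 34.6, 24.5 and 41.7 CPM in the GIF/ATP4B-DTR samples. Control 1 was the highest sample, and the GIF-DTR samples lay just below control 2. None of the 3 lines was called: the log2 fold changes were -0.38, -0.47 and -0.27, and the 95% intervals reached down to -0.95, -1.04 and -0.84 (edgeR adjusted p = 0.326, 0.239 and 0.443). Its receptor gene Cx3cr1, which monocytes and macrophages express, had means of 2.57, 1.90, 4.35 and 1.62 CPM in control, ATP4B-DTR, GIF-DTR and the combined GIF/ATP4B-DTR and was not called in any line.

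The sheddase genes Adam10 and Adam17, whose products release both membrane-bound chemokines, were not called in any line. Adam10 had means of 302, 277, 222 and 290.3 CPM in control, ATP4B-DTR, GIF-DTR and the combined GIF/ATP4B-DTR, and Adam17 had means of 50.8, 54.5, 51.9 and 60.8 CPM.

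The 3 chemokines of mucosal homing divided between abundant genes without a call and the low-level Ccl20. Cxcl17 measured 79.7 and 64.4 CPM in control 1 and 2, then 65.1, 79.0 and 56.7 CPM in the ATP4B-DTR samples, 90.5, 46.7 and 71.1 CPM in the GIF-DTR samples, and 92.9, 61.1 and 73.6 CPM in the GIF/ATP4B-DTR samples. Its groups overlapped throughout, and its log2 fold changes were -0.11, -0.05 and 0.07. The 95% intervals were -0.68 to 0.47, -0.63 to 0.52 and -0.50 to 0.65, so changes within those bounds were not excluded here.

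Ccl28, which binds CCR10 and CCR3 and attracts IgA-secreting plasma cells, measured 15.0 and 9.42 CPM in control 1 and 2, then 22.3, 11.7 and 11.3 CPM in the ATP4B-DTR samples, 15.9, 14.9 and 9.36 CPM in the GIF-DTR samples, and 10.7, 17.2 and 15.5 CPM in the GIF/ATP4B-DTR samples. Its groups overlapped, with log2 fold changes of 0.30 (95% interval -0.48 to 1.09), 0.13 (-0.65 to 0.91) and 0.24 (-0.54 to 1.02). Jchain, the joining chain of secreted IgA, measured 3.86 CPM in control 1 and 52.6 CPM in control 2, beside 0.0828 to 0.512 CPM in the ATP4B-DTR samples, 0.393 to 3.36 CPM in the GIF-DTR samples and 0 to 1.33 CPM in the GIF/ATP4B-DTR samples. It was called lower in ATP4B-DTR (edgeR adjusted p = 0.0206) and GIF/ATP4B-DTR (edgeR adjusted p = 0.0200), while Ccl28 was not called in either. Without control 2 neither Jchain call held (edgeR adjusted p = 0.129 and 0.198), and with the Y-linked covariate that in ATP4B-DTR did not (0.193, with a log2 fold change of -5.77 in place of -6.95).

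Ccl20, the ligand of CCR6 that epithelia over lymphoid tissue release, measured 0.180 and 0 CPM in the 2 controls, or 4 and 0 counts. It measured 0.419, 0.527 and 0.249 CPM in the ATP4B-DTR samples, 0.568, 1.69 and 0.595 CPM in the GIF-DTR samples, and 1.65, 0.812 and 0.712 CPM in the GIF/ATP4B-DTR samples. Every line sample lay above both controls, and every GIF-DTR and GIF/ATP4B-DTR sample lay above every ATP4B-DTR sample after scaling. GIF-DTR 1 and ATP4B-DTR 2 both had 12 counts, so the separation of these 2 lines lies within counting error.

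The log2 fold change of Ccl20 was 3.25 ± 0.99 in GIF-DTR (edgeR adjusted p = 0.0452) and 3.39 ± 0.99 in GIF/ATP4B-DTR (edgeR adjusted p = 0.0213), and 1.99 ± 1.01 in ATP4B-DTR (edgeR adjusted p = 0.186). The size of these changes depended on the control. In GIF-DTR and GIF/ATP4B-DTR they were 7.49 and 7.64 without control 1, which leaves a control with 0 counts, and 2.38 and 2.52 without control 2. The value in ATP4B-DTR ran from 1.12 to 6.24 over the fits that left out 1 sample. No linear fold is given, because the control mean of 0.0898 CPM lies below the 3-count floor. The call in GIF-DTR was lost in 10 of its 18 alternatives, with edgeR adjusted p up to 0.254. That in GIF/ATP4B-DTR was lost without control 2 (edgeR adjusted p = 0.117), without GIF/ATP4B-DTR 1 (0.0535) and among the samples with Y-linked expression (0.0557). Ccr6 had 1 count or fewer in every sample.

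Between the lines, 0 of 10 chemokines were called for GIF-DTR against ATP4B-DTR, where 0.49% of all genes tested were, and DESeq2 called 0 members and 2.57% of all genes. In that comparison 5 members, and 9.81% of all genes, had an unadjusted p under 0.05. The members were Cxcl1, Cxcl2, Cxcl9 and Cxcl16 with higher means in GIF-DTR, and Cxcl5 with a lower one. Samples of these 2 lines did not overlap for Cxcl5, Cxcl9, Cxcl10, Cxcl16 and Ccl20, and 16.9% of all genes tested did not overlap. For Ccl20 the nearest samples of the 2 lines both had 12 counts. For GIF/ATP4B-DTR against ATP4B-DTR, Cxcl2, Cxcl16 and Ccl20 did not overlap, beside 15.1% of all genes. For GIF/ATP4B-DTR against GIF-DTR, Cxcl5 and Cxcl9 did not overlap, in opposite directions, beside 26.4% of all genes.

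Genes of the NF-κB, IL-1 and IL-17 pathways were called higher for 4 of 21 tested in ATP4B-DTR, 6 of 21 in GIF-DTR and 8 of 21 in the combined GIF/ATP4B-DTR, with 0 lower, beside the 12.2%, 9.97% and 18.2% of all genes called higher. Their median log2 fold changes were 0.27, 0.40 and 0.70, beside -0.01, -0.01 and -0.04 over all genes. Without control 1 the counts in ATP4B-DTR and GIF-DTR were 1 and 2, without ATP4B-DTR 2 the first was 1, and with the Y-linked covariate both were 1. Lif, a cytokine of the IL-6 family, measured 0.269 and 0.721 CPM in control 1 and 2, then 3.23 to 5.44 CPM in the ATP4B-DTR samples, 5.95 to 7.24 CPM in the GIF-DTR samples and 5.81 to 13.7 CPM in the GIF/ATP4B-DTR samples. Relb, a subunit of NF-κB, had means of 9.11 CPM in control and 19.9, 30.1 and 35.4 CPM in the lines. Il1rn, the antagonist of the IL-1 receptor, had means of 0.951 CPM in control and 3.37, 5.52 and 13.5 CPM in the lines.

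All 3 genes were called in each line, with edgeR adjusted p from 0.000257 to 0.0292. In GIF/ATP4B-DTR the calls of all 3 held when either control was left out. In ATP4B-DTR and GIF-DTR those of Lif did too, while Il1rn lost both without control 1 (edgeR adjusted p = 0.159 and 0.0612) and Relb lost both without control 2 (0.163 and 0.0592) and that in ATP4B-DTR without control 1 (0.0743). With the Y-linked covariate Il1rn and Relb were not called in ATP4B-DTR (edgeR adjusted p = 0.0759 and 0.190) or GIF-DTR (0.0980 and 0.170). The log2 fold changes of Il1rn were then 2.03 and 2.84 in place of 1.85 and 2.56. Those of Relb were 0.89 and 1.37 in place of 1.13 and 1.72. Icam1, an adhesion molecule for leukocytes, was called in GIF-DTR (4.13-fold, edgeR adjusted p = 0.0149) and GIF/ATP4B-DTR (4.97-fold, edgeR adjusted p = 0.00341), the first of which was lost without control 1 (edgeR adjusted p = 0.0686) and with the Y-linked covariate (0.104, at a log2 fold change of 2.47 in place of 2.05). Its log2 fold changes in these lines were 1.41 and 1.68 without control 1 and 3.15 and 3.41 without control 2. It was the gene nearest in profile to Cxcl2 (0.61 log2 units against a spread of 1.14 for Cxcl2) and among the 3 nearest to Cxcl1. Tnf, with 1 count in each control and 7 to 82 counts in the line samples, was also called higher in all 3 lines. Il17a had at most 2 counts in any sample.

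Of the 8 receptor genes for these chemokines 4 could be tested, and 0 were called by edgeR in any line against control. Of the 27 other chemokine genes 19 could be tested. Those called against control were Cxcl11, given above, and, lower in GIF/ATP4B-DTR, Cxcl12 and Ccl11. Cxcl12, a stromal chemokine that retains CXCR4-bearing cells, measured 1.93 and 28.1 CPM in control 1 and 2, then 1.17, 2.82 and 2.81 CPM in the GIF/ATP4B-DTR samples. Ccl11, or eotaxin, measured 0.898 and 11.9 CPM in control 1 and 2, then 0.0403, 0.983 and 0.855 CPM in the GIF/ATP4B-DTR samples. Control 1 overlapped the line for both genes. The count of 2 lower fell to 1 or 0 in 9 of the 11 fits that left out 1 sample, and was 0 without control 2, where the log2 fold changes went from -2.72 to 0.23 for Cxcl12 and from -3.34 to -0.52 for Ccl11. The endothelial markers Plvap and Kdr were called lower in the same line (edgeR adjusted p = 0.0163 and 0.0269), and neither was without control 2 (0.149 and 0.682). The fibroblast sum of 49.3 CPM in control 1 and 500.1 CPM in control 2 stood beside 98.2 to 276 CPM in the GIF/ATP4B-DTR samples, and 0 of 6 fibroblast markers were called there. The part of these markers in the Cxcl12 and Ccl11 levels was not tested. The count of other chemokines called higher ran from 0 to 2 in GIF-DTR and from 0 to 4 in GIF/ATP4B-DTR over the fits that left out 1 sample.

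Of the other members, Cxcl10 was nearest in profile to Aqp5, Cftr and Ccne1 (0.87 to 0.96 log2 units against its own spread of 1.87), Cxcl5 to Ceacam1, Krt79 and Ripply3 (0.47 to 0.55 against 1.09) and Ccl20 to Neurl3, Hist1h4i and Fabp2 (0.54 to 0.59 against 1.18). Among pairs of members, the smallest difference was 0.33, between Cx3cl1 and Cxcl17, which both varied little, and Cxcl2 with Cxcl16 had 0.64. Likeness over 11 samples that share 4 genotypes is a description only.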

How the data were processed

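Stranded poly(A) RNA libraries were made from gastric corpus mucosa, per the labels' protocols. The authors deposited unscaled estimated counts per gene, and 30.7% of their nonzero values are fractional. The build is mm10, per the submitters' processing notes, and the aligner, quantifier and annotation are not given in the sources used here. Expected counts were rounded, and 34582 of 34866 identifiers were given symbols. GENCODE M21, which holds 93.6% of the versioned identifiers, gave positions and exon lengths.

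Samples were grouped by the genotype label. In edgeR 4.0.16 (R 4.3.3) a filter by filterByExpr was applied (14889 kept), and TMM-scaled counts were fitted over all 11 samples with 1 coefficient per genotype by the robust quasi-likelihood model. P-values were adjusted by Benjamini-Hochberg over all genes. The biological coefficient of variation was 26.6%. The model was tested on simulated data. Alternatives were DESeq2 1.42.0, its size factors, other filters, no robust moderation, only the groups compared, Y-linked expression and leaving out each sample. Floors are 3 counts. Named genes are the members, up to 4 genes per pathway list by smallest p, cell type markers and the 3 nearest profiles. Cxcl3, Isg15, Ifit1, Ifit3, Irf7, Irf8, Cd274, C1qa, Jchain and Adam genes were chosen for display after their values were seen. The members and lists were chosen with earlier results of these data known.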

Additional observations from a re-analysis of the deposited data

How the results depend on the processing

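Of the 13 member changes called, 0 reversed under any alternative, and 2 (Cxcl10 and Cxcl16 in GIF/ATP4B-DTR against control) stayed past the threshold under all 20 that could be run for them; the calls that were lost are given beside the results, and the cause was not tested. Cxcl5 did not pass the filter without GIF/ATP4B-DTR 1 or 3 or at the higher count minimum, where its calls could not be tested. All 45 values that turned sign belong to changes that were not called. No paired analysis was possible because only the controls carry replicate numbers in their titles. Leaving out 1 sample at a time gave 0 to 2 members called for ATP4B-DTR against control, 1 to 4 members called for GIF-DTR against control, 2 to 6 members called for GIF/ATP4B-DTR against control, 0 to 1 members called for GIF/ATP4B-DTR against GIF-DTR. The number of all genes called then ran from 1315 to 3329 for ATP4B-DTR against control, from 871 to 2629 for GIF-DTR against control, from 2874 to 5042 for GIF/ATP4B-DTR against control, from 17 to 140 for GIF-DTR against ATP4B-DTR, from 0 to 43 for GIF/ATP4B-DTR against ATP4B-DTR, from 160 to 393 for GIF/ATP4B-DTR against GIF-DTR, from 0 to 277 for the interaction. A lone control left in this way is assumed to vary like the other groups. Over the same omissions Cxcl9 spanned log2 fold changes from -1.14 to 5.08 for ATP4B-DTR against control, from 1.41 to 7.63 for GIF-DTR against control, from -0.17 to 6.05 for GIF/ATP4B-DTR against control, from -0.03 to 1.87 for GIF/ATP4B-DTR against ATP4B-DTR. Cxcl17 spanned log2 fold changes from -0.26 to 0.06 for ATP4B-DTR against control, from -0.29 to 0.16 for GIF-DTR against control, from -0.10 to 0.24 for GIF/ATP4B-DTR against control, from -0.18 to 0.27 for GIF-DTR against ATP4B-DTR, from -0.09 to 0.37 for GIF/ATP4B-DTR against GIF-DTR. Ccl28 spanned log2 fold changes from -0.09 to 0.68 for ATP4B-DTR against control, from -0.16 to 0.51 for GIF-DTR against control, from -0.05 to 0.62 for GIF/ATP4B-DTR against control, from -0.34 to 0.22 for GIF-DTR against ATP4B-DTR, from -0.23 to 0.31 for GIF/ATP4B-DTR against ATP4B-DTR, from -0.11 to 0.29 for GIF/ATP4B-DTR against GIF-DTR, from -0.57 to 0.18 for the interaction. Cx3cl1 spanned log2 fold changes from -0.50 to 0.00 for GIF/ATP4B-DTR against control, from -0.27 to 0.09 for GIF-DTR against ATP4B-DTR, from -0.08 to 0.29 for GIF/ATP4B-DTR against ATP4B-DTR. Cxcl2 spanned log2 fold changes from -0.15 to 0.97 for GIF/ATP4B-DTR against GIF-DTR, from -1.95 to 0.11 for the interaction. Cxcl10 spanned log2 fold changes from -0.18 to 0.94 for GIF/ATP4B-DTR against GIF-DTR. Ccl20 spanned log2 fold changes from -0.32 to 0.86 for GIF/ATP4B-DTR against GIF-DTR. The planned covariate from 4 Y-linked genes could not be fitted, because their sum was above 1 CPM in every sample, and Ddx3y with Eif2s3y replaced it after the data were seen, as were the fits within samples with or without Y-linked expression. With that covariate the members called were 0 in ATP4B-DTR and 1 in GIF-DTR against control and 0 for GIF/ATP4B-DTR against GIF-DTR, and the genes called were 1849, 438 and 14; genes called were 23 for GIF-DTR against ATP4B-DTR, 1 for GIF/ATP4B-DTR against ATP4B-DTR and 6 for the interaction. It also turned Ccl28 to 0.22 for GIF-DTR against ATP4B-DTR and -0.84 for GIF/ATP4B-DTR against GIF-DTR, and Cxcl9 to 0.62 for GIF/ATP4B-DTR against GIF-DTR and 2.49 for the interaction. Among samples without Y-linked expression 30 genes were called for GIF-DTR against ATP4B-DTR, with Ccl28 at 0.20. DESeq2 called 383 genes for GIF-DTR against ATP4B-DTR, 1.87% of all genes for GIF/ATP4B-DTR against ATP4B-DTR, 987 genes for GIF/ATP4B-DTR against GIF-DTR and 730 for the interaction, with 1 member in the second and the last of these and 0 in the third. Without a filter on low counts 57 genes and 1 member were called for GIF/ATP4B-DTR against ATP4B-DTR and 191 genes for the interaction; only the groups compared gave 1 gene in the first. A minimum of 10 counts in every sample kept 5 members, of which 2 were called in GIF-DTR, 2 in GIF/ATP4B-DTR and 0 for GIF/ATP4B-DTR against GIF-DTR, and gave 155 genes for the interaction, which had 57 with DESeq2's size factors and 61 without robust moderation.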
